A study of Homo sapiens with 60 samples.

Results

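Soyo-san is a traditional multi-herb formula, and its ethanol extract was given to SW1783 cells, an established human astrocytoma line, for 24 h. The comparison described here sets the 2 libraries of the high dose (500 µg/mL) against the 3 libraries of the vehicle, 5 of the 60 messenger RNA libraries of the series, chosen by their labelled extract and dose. The 2 libraries of the low dose (20 µg/mL) and the 2 of the medium dose (100 µg/mL) of the same extract were used beside them, and 24 libraries of 4 other extracts at 500 and 20 µg/mL served for 1 further comparison, beside which 1 library of Okbyeongpung-san at each of these doses is given. Ranges over all extract libraries of the series, given for some genes, also take in Polygalae Radix and Aucklandiae Radix. Both of these were given at high doses below 500 µg/mL. Every culture was of the same line in L-15 medium with serum. Vehicle was DMSO, given as 0.1% in the sample labels and as 2% in the series text, which could not be settled here. Whether the replicates were separate cultures is not said in the labels. The p-values measure only a spread between replicate libraries, pooled over the 25 groups of the fit, which may be technical. By the library names, all Soyo-san libraries belong to set 14 and the vehicle libraries to set D1, so that in any comparison with vehicle the extract and the library set cannot be told apart. Both doses of the high against low comparison lie in set 14.

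Several groups of genes described here belong to responses that cultured cells can mount to plant extracts. NRF2 is a transcription factor that is stabilised under oxidative or electrophilic stress and raises genes of glutathione, thioredoxin, haem and iron handling. Bone morphogenetic proteins (BMPs) signal through SMAD proteins to the ID genes, which code for inhibitors of helix-loop-helix transcription factors and hold back differentiation in glial and glioma cells. Lysosome genes and the autophagy receptor p62, the product of SQSTM1, are raised together by the TFEB family of factors when lysosomes are loaded or nutrients run low.

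Library totals were 25609325 and 31030979 expected counts at the high dose, 30830474 and 31192205 at the low dose, and 25186538 to 26477754 in vehicle. The share of counts from mitochondrially encoded genes was 7.32% and 7.39% at the high dose and 7.30% to 7.91% over the 6 Soyo-san libraries, against 10.1% to 10.3% in vehicle. The summed level of 16 astrocyte and glioma markers was 8394 to 8523 CPM (counts relative to the library total, unscaled in this paragraph) at the high dose, against 8724 to 8852 CPM in vehicle, most of it from VIM and CD44. Of the 16, GFAP stayed at 0.078 CPM or less at the high dose, against 0.227 CPM or less in vehicle. FABP7, ALDH1L1 and AQP4 were at 0 in the high-dose and vehicle libraries. In the same libraries SOX2 and OLIG2 stayed at 0.079 CPM or less, S100B at 0.194 CPM or less and SLC1A2 at 0.604 CPM or less. Others were expressed, among them SOX9 (62.6 to 63.4 CPM at the high dose, against 77.1 to 82.6 CPM in vehicle). SLC1A3 was at 26.2 to 27.3 CPM, against 29.8 to 31.6 CPM, and CHI3L1 at 791 to 826 CPM, against 680 to 764 CPM. EGFR was at 318 to 352 CPM, against 301 to 357 CPM. Summed epithelial markers (8 genes, chiefly KRT18) were 95.3 to 105.6 CPM at the high dose. They were 141.6 to 163 CPM at the low dose and 136 to 148 CPM in vehicle. Summed leukocyte markers (10 genes) were 209.9 to 217 CPM at the high dose, against 184 to 194 CPM in vehicle. CD2, CD3E and MS4A1 were among those at 0. Most of that sum was CD68, at 198 to 205 CPM at the high dose, against 171 to 181 CPM in vehicle. PTPRC went the other way, at 7.93 to 8.43 CPM, against 9.31 to 10.3 CPM. Neuronal markers (10 genes) summed to 141 to 143 CPM at the high dose, against 158 to 172 CPM in vehicle, endothelial markers (8 genes) to 37.5 to 39.6 CPM, against 35.3 to 39.6 CPM, and hepatocyte markers (8 genes) to 6.61 to 7.07 CPM, against 6.35 to 7.14 CPM. No tested gene of these 6 marker lists was called at the high dose against vehicle, and the part of such cells in the results below was not tested. In bulk RNA, fewer cells of a type and less RNA per cell cannot be told apart.

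At the high dose, 563 of 19366 tested genes (2.91%) differed from vehicle, 314 higher (1.62%) and 249 lower (1.29%), by edgeR's quasi-likelihood test at a Benjamini-Hochberg adjusted p under 0.05. Most changes were small: 58 of the higher and 56 of the lower genes were past 2-fold. Against the low dose, 96 genes (0.496%) differed, 51 higher (0.263%) and 45 lower (0.232%). Both comparisons use the same 2 high-dose libraries. In the same direction, 74 genes were called in both, 39 higher (0.201%) and 35 lower (0.181%), with 0 called in opposite directions; 489 were called against vehicle alone and 22 against the low dose alone. Among the 314 genes higher than vehicle, the median log2 fold change was 0.53 over vehicle and 0.20 over the low dose, and the low dose itself stood at a median of 0.31 over vehicle. Among the 249 lower genes these medians were -0.58, -0.30 and -0.29. The medians over all tested genes were 0.0019 over vehicle and -0.0032 over the low dose. A Soyo-san dose with 1 library left out has a single library, which is then assumed to vary as the other groups of the fit do. Leaving out 1 library lowered the count against vehicle to between 125 (without high replicate 2) and 345 (without vehicle replicate 1), with 159 left without high replicate 1, 322 without vehicle replicate 2 and 270 without vehicle replicate 3. Against the low dose it lowered the count to between 28 (without high replicate 2) and 40 (without low replicate 2), with 33 left without high replicate 1 and 35 without low replicate 1. The count of genes called in both came to 25 without high replicate 2, 29 without high replicate 1, 31 without low replicate 1, 36 without low replicate 2 and 65 to 67 without a vehicle library.

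**Figure D1:**
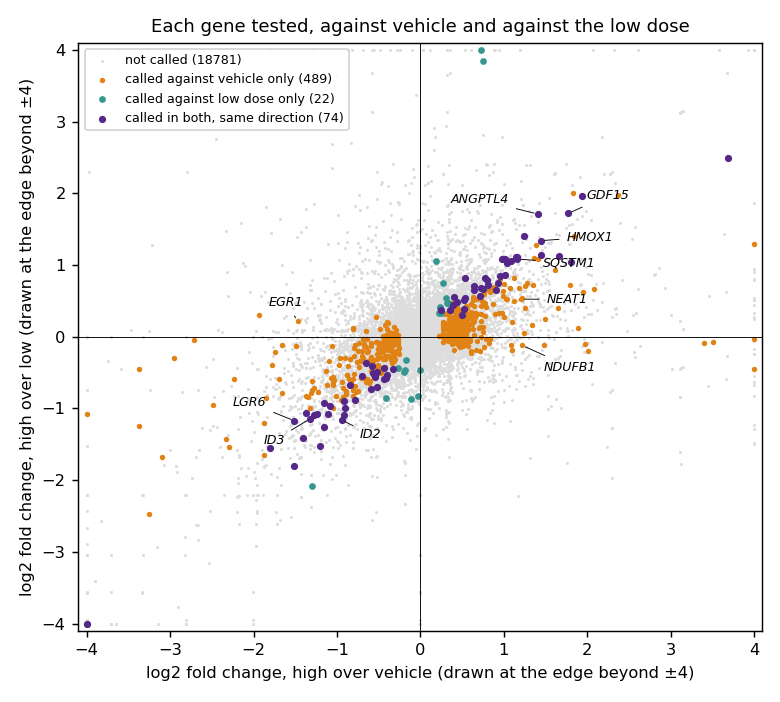
Log2 fold change of every tested gene at the high dose of Soyo-san, over vehicle on the x axis and over the low dose on the y axis, with 1 point per gene and colours for the calls. The 74 genes called in both comparisons lie in the upper right and lower left, whereas the 489 genes called against vehicle alone lie mostly closer to 0 on the y axis.

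The medium dose gave a check that shares no library with the high against low comparison when it is set against vehicle. Of the 51 genes higher at the high than at the low dose, 43 were also higher at the medium dose than in vehicle, with a median log2 fold change of 0.18, whereas 49.0% of all tested genes were. Of the 45 lower genes, 34 were lower at the medium dose than in vehicle, with a median of -0.21, against 50.6% of all tested genes. The medium dose itself was called against vehicle for 46 genes (0.238%), 38 higher (0.196%) and 8 lower (0.0413%), and the low dose for 295 genes (1.52%), 181 higher (0.935%) and 114 lower (0.589%). The number of genes called against vehicle did not follow the order of the doses.

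Where the mean level over high and vehicle libraries reached a log2 CPM of 2, rises over both vehicle and the low dose included GDF15, HMOX1, SQSTM1, ANGPTL4, PLIN2 and FBXO32. Below that level, and singled out after their values were seen, PSG7 (3.69 over vehicle and 2.50 over the low dose) and KCP (1.93 and 1.97) had larger changes, and reads of PSG7 may be shared with its near-identical family members. GDF15, a cytokine released by stressed cells, is gene ENSG00000130513 on chromosome 19, 18374731 to 18389176, + strand. GDF15 had 12.8 and 12.8 CPM in the high-dose libraries, against 3.96, 3.57 and 3.69 CPM in vehicle. The low dose gave 3.99 and 3.77 CPM and the medium dose 5.72 and 4.82 CPM. The low dose and vehicle lay close together and the high dose stood alone. Its log2 fold change was 1.77 ± 0.19, adjusted p = 7.9e-08 over vehicle and 1.72 ± 0.21, adjusted p = 3.7e-06 over the low dose. HMOX1, the enzyme that degrades haem, is gene ENSG00000100292 on chromosome 22, 35380361 to 35394214, + strand. HMOX1 had 152 and 171 CPM in the high-dose libraries, against 61.2, 58.1 and 58.6 CPM in vehicle. At the low dose HMOX1 was at 69.4 and 58.1 CPM and at the medium dose at 74.1 and 70.5 CPM. The high-dose libraries lay above every other Soyo-san or vehicle library, and the change was 1.45 ± 0.11, adjusted p = 4.5e-12 over vehicle and 1.34 ± 0.12, adjusted p = 6.4e-10 over the low dose. SQSTM1, the autophagy receptor p62, is gene ENSG00000161011 on chromosome 5, 179806398 to 179838078, + strand. SQSTM1 had 1227 and 1304 CPM in the high-dose libraries, against 585, 559 and 552 CPM in vehicle. Its low-dose values were 623 and 571 CPM and its medium-dose values 674 and 697 CPM. It rose by 1.16 ± 0.15, adjusted p = 3.2e-06 over vehicle and 1.08 ± 0.17, adjusted p = 0.00024 over the low dose, with no overlap between the high dose and any lower group. SQSTM1 overlaps MRNIP and MGAT4B on the opposite strand, and MRNIP was called in the same direction (0.72, adjusted p = 0.0001 over vehicle), so that reads of the 2 genes may not be fully separated.

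ANGPTL4, a secreted inhibitor of lipoprotein lipase, is gene ENSG00000167772 on chromosome 19, 8363289 to 8374373, + strand. ANGPTL4 had 35.6 and 38.03 CPM in the high-dose libraries, against 16.3, 11.8 and 13.6 CPM in vehicle. With 12.2 and 10.3 CPM at the low dose and 17.9 and 15.2 CPM at the medium dose, its high-dose libraries lay above all others and the rise was 1.41 ± 0.23, adjusted p = 0.00017 over vehicle and 1.71 ± 0.27, adjusted p = 0.00024 over the low dose. PLIN2, the coat protein of lipid droplets, is gene ENSG00000147872 on chromosome 9, 19108375 to 19149290, - strand. PLIN2 had 114 and 124 CPM in the high-dose libraries, against 64.4, 56.3 and 60.1 CPM in vehicle. It was at 59.1 and 53.4 CPM at the low dose and 65.97 and 59.5 CPM at the medium dose, overlapping vehicle at both, and rose by 0.98 ± 0.09, adjusted p = 9e-10 over vehicle and 1.08 ± 0.10, adjusted p = 1.2e-09 over the low dose. FBXO32, a ubiquitin ligase subunit known for its part in muscle wasting, is gene ENSG00000156804 on chromosome 8, 123497889 to 123541206, - strand. FBXO32 had 173 and 169.8 CPM in the high-dose libraries, against 81.4, 87.4 and 84.8 CPM in vehicle. In low-dose libraries it reached 79.96 and 82.4 CPM, and in medium-dose libraries 100.1 and 107 CPM. Here the medium dose lay above the low dose and vehicle and well below the high dose, and the rise at the high dose was 1.02 ± 0.08, adjusted p = 1.9e-11 over vehicle and 1.08 ± 0.09, adjusted p = 1.2e-10 over the low dose. The calls of GDF15, HMOX1, SQSTM1, ANGPTL4, PLIN2 and FBXO32 in both comparisons remained with any 1 library left out, with adjusted p at most 0.0088 over vehicle and 0.034 over the low dose, both for ANGPTL4.

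**Figure D2:**
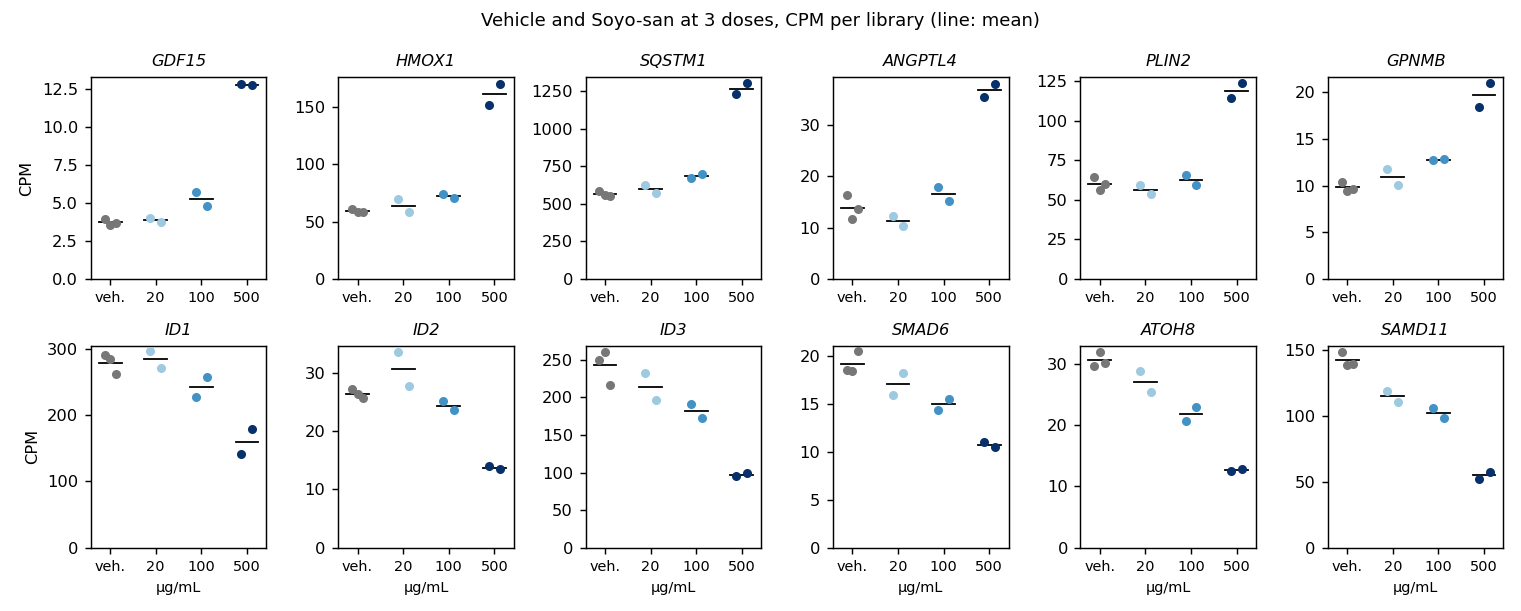
CPM of 12 genes in each library (points) and the group mean (line), in vehicle (veh.) and at 20, 100 and 500 µg/mL of Soyo-san, with each y axis starting at 0. In the upper row the 500 µg/mL libraries lie above all others, and in the lower row below all others.

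Other named genes that rose over both vehicle and the low dose had varied functions. FOSB, an immediate early transcription factor, had 6.42 and 6.76 CPM in the high-dose libraries, against 2.51, 2.76 and 3.05 CPM in vehicle. Lower doses gave 2.26 and 2.72 CPM (low) and 3.49 and 3.25 CPM (medium). The rise was 1.25 ± 0.19, adjusted p = 3.4e-05 over vehicle and 1.40 ± 0.21, adjusted p = 0.00012 over the low dose. SIK1, a salt-inducible kinase that answers cyclic AMP, had 37.9 and 32.9 CPM in the high-dose libraries, against 15.3, 15.7 and 18.96 CPM in vehicle, and its change was 1.09 ± 0.19, adjusted p = 0.00048 over vehicle. ICAM1, a leukocyte adhesion molecule, had 67.7 and 65.2 CPM in the high-dose libraries, against 46.5, 45.7 and 45.7 CPM in vehicle. The low dose gave 47.2 and 43.7 CPM and the medium dose 49.4 and 49.8 CPM. The high dose stood above the rest by 0.53 ± 0.08 over vehicle and 0.55 ± 0.09 over the low dose (adjusted p = 3.4e-05 and 0.00038). UAP1L1, related to the enzyme that makes UDP-N-acetylglucosamine, had 47.2 and 51.1 CPM in the high-dose libraries, against 30.3, 27.3 and 28.6 CPM in vehicle, a rise of 0.77 ± 0.10, adjusted p = 3.7e-06. ATP2A3, a calcium pump of the endoplasmic reticulum, had 7.16 and 8.84 CPM in the high-dose libraries, against 3.34, 3.73 and 3.69 CPM in vehicle. ATP2A3 differed from vehicle by 1.16 ± 0.17, adjusted p = 3.4e-05. IGFN1, coding for an immunoglobulin and fibronectin domain protein, had 18.4 and 14.1 CPM in the high-dose libraries, against 8.29, 7.91 and 7.46 CPM in vehicle. IGFN1 thus changed by 1.04 ± 0.21, adjusted p = 0.002 on the log2 scale. SH2D5, an adaptor with an SH2 domain, had 12.2 and 12.3 CPM in the high-dose libraries, against 6.55, 5.03 and 6.36 CPM in vehicle. For SH2D5 this was a change of 1.03 ± 0.17, adjusted p = 0.00017. In none of these 7 genes did the high dose overlap vehicle. Over the low dose, the calls of FOSB, ICAM1 and UAP1L1 remained, with adjusted p up to 0.024, 0.036 and 0.0058. IGFN1 lost the call against vehicle without high replicate 1 (adjusted p up to 0.13). SIK1 lost the call against the low dose without high replicate 1, low replicate 1 or low replicate 2 (adjusted p up to 0.28). IGFN1 lost the call against the low dose without high replicate 1 or low replicate 1 (adjusted p up to 0.66). ATP2A3 lost the call against the low dose without high replicate 2 or low replicate 2 (adjusted p up to 0.099). SH2D5 lost the call against the low dose without low replicate 1 (adjusted p up to 0.13).

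Of 30 listed NRF2 target genes, all tested, 14 rose over vehicle and 0 fell, with a list median of 0.41 (log2), where 1.62% of all genes were called higher and the median of all genes was 0.0019. Over the low dose 1 of the 30, HMOX1, was called, where 0.263% of all genes were higher. The median over the low dose was 0.25, and all 30 log2 fold changes were above 0. The low dose against vehicle had a median of 0.13 with 0 called and the medium dose a median of 0.09 with 0 called. FTL, the light chain of the iron store ferritin, is gene ENSG00000087086 on chromosome 19, 48965301 to 48966878, + strand. FTL had 2426 and 2688 CPM in the high-dose libraries, against 1407, 1332 and 1211 CPM in vehicle. At the low dose FTL was at 1645 and 1289 CPM and at the medium dose at 1642 and 1566 CPM. The high-dose libraries lay above all others, and the change was 0.96 ± 0.23, adjusted p = 0.011 over vehicle and 0.80 ± 0.25, adjusted p = 0.26 over the low dose. FTH1, the ferritin heavy chain, had 2065 and 2289 CPM in the high-dose libraries, against 1190.2, 1299 and 1249 CPM in vehicle. Its low-dose values were 1508 and 1254 CPM and its medium-dose values 1288 and 1329 CPM. The change was 0.81 ± 0.23, adjusted p = 0.041 over vehicle and 0.66 ± 0.25, adjusted p = 0.57 over the low dose. OSGIN1, an oxidative stress-induced growth inhibitor, had 29.6 and 32.8 CPM in the high-dose libraries, against 18.2, 17.1 and 17.4 CPM in vehicle. That gave OSGIN1 a change of 0.83 ± 0.18, adjusted p = 0.006. OSGIN1 was at 18.24 CPM or more in all 57 extract libraries of the series, above every vehicle library. NQO1, a quinone reductase, had 247 and 254 CPM in the high-dose libraries, against 167, 166 and 160.4 CPM in vehicle (0.61, adjusted p = 0.012). The other 10 of the 14, beside HMOX1, FTL, FTH1 and OSGIN1, changed by 0.30 to 0.65, among them the glutathione synthesis subunit GCLM (0.46), thioredoxin reductase TXNRD1 (0.40), sulfiredoxin SRXN1 (0.48) and malic enzyme ME1 (0.53). SLC7A11, the cystine transporter, was not called (adjusted p = 0.53). With 1 library left out, 2 to 9 of the 30 were called. BEST1, which codes for an ion channel of retinal epithelium and overlaps FTH1 on the opposite strand, had 13.9 and 13.8 CPM in the high-dose libraries, against 4.41, 3.69 and 3.86 CPM in vehicle. Against vehicle BEST1 changed by 1.80 ± 0.40, adjusted p = 0.0059. The low dose gave 8.65 and 8.12 CPM for BEST1, also above vehicle. FTL lost the call against vehicle without high replicate 1, high replicate 2 or vehicle replicate 3 (adjusted p up to 0.18). FTH1 lost the call against vehicle with any 1 of the 5 libraries left out (adjusted p up to 0.35). OSGIN1 lost the call against vehicle without high replicate 2 (adjusted p up to 0.15). BEST1 lost the call against vehicle without high replicate 1 or high replicate 2 (adjusted p up to 0.069).

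The promoters of the called NRF2 targets were searched for TGACNNNGC, the core of the antioxidant response element that NRF2 binds, on both strands of the 250 bases before each RefSeq start (GRCh38.p14). Of the 14 genes, 12 had an entry and 5 held a match (GCLM, ME1, PGD, CBR1 and TXNRD1), against 13.2% of 27305 genes. That is 41.7% of the 12. The list is of known NRF2 targets and its 16 uncalled members were not searched, so the share cannot relate the element to the calls. The 27305 genes are all genes with an entry, not the tested genes alone. The letters were also found in 2 of 7 ID and BMP genes that fell against vehicle (28.6%), in 7 of 26 genes lower than both vehicle and the low dose (26.9%) and in 4 of 28 genes higher than both (14.3%). The stretches of 3 of these genes are shown, because they are enzymes of glutathione, thioredoxin and NADPH supply. Capitals mark the match, which lies on the opposite strand in GCLM and at start 2 of TXNRD1, and each stretch ends before the start site. The positions are chr1:93909431-93909489, - strand for GCLM, chr6:83431155-83431213, - strand for ME1 and chr12:104215655-104215713, + strand and chr12:104286905-104286963, + strand for 2 starts of TXNRD1.
GCLM: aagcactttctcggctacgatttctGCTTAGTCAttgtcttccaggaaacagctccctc
ME1: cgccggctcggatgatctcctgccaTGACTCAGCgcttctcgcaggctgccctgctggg
TXNRD1 start 1: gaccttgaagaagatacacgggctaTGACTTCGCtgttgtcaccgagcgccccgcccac
TXNRD1 start 2: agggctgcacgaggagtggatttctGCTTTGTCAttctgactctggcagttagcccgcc

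Lysosome and autophagy genes were called for a few members and not for most. Of 22 listed genes, all tested, 3 rose over vehicle (SQSTM1, GPNMB and CTSL) and 0 fell, with a median of 0.17, where 1.62% of all genes were higher. Over the low dose 2 of them, SQSTM1 and GPNMB, also rose (median 0.17), where 0.263% of all genes were higher. GPNMB, a membrane glycoprotein of lysosomes and melanosomes, is gene ENSG00000136235 on chromosome 7, 23235967 to 23275108, + strand. GPNMB had 18.4 and 21.04 CPM in the high-dose libraries, against 10.4, 9.41 and 9.59 CPM in vehicle. In low-dose libraries it reached 11.8 and 10.1 CPM, and in medium-dose libraries 12.7 and 12.8 CPM. The medium dose lay between the low and the high dose, and the high dose was 1.01 ± 0.17, adjusted p = 0.0002 over vehicle and 0.85 ± 0.19, adjusted p = 0.017 over the low dose. CTSL, a lysosomal cathepsin, had 196 and 204 CPM in the high-dose libraries, against 147, 145 and 138 CPM in vehicle. CTSL differed from vehicle by 0.48 ± 0.13, adjusted p = 0.023. LAMP1 and LAMP2, the main lysosomal membrane proteins, had log2 fold changes of 0.07 and -0.05 (adjusted p = 0.83 and 0.96). Further genes of lysosomal or nutrient-sensing function stood among the 74 called in both comparisons and were singled out after their values were seen. They were CTNS, the lysosomal cystine carrier (0.44, adjusted p = 0.015 over vehicle and 0.49, adjusted p = 0.046 over the low dose), FLCN, folliculin (0.40, adjusted p = 0.027 and 0.55, adjusted p = 0.012), TMEM192, a lysosomal membrane protein (0.50, adjusted p = 3.7e-06 and 0.30, adjusted p = 0.035), and RAB29, a small GTPase of the lysosome and Golgi (0.52, adjusted p = 0.00017 and 0.39, adjusted p = 0.046). GNPDA1 and AMDHD2, both enzymes that break down amino sugars, had 86.9 and 89.001 CPM and 27.3 and 28.7 CPM at the high dose, against 52.8, 52.7 and 51.6 CPM and 14.02, 14.6 and 15.4 CPM in vehicle. CTSL lost the call against vehicle with any 1 of the 5 libraries left out (adjusted p up to 0.26). GPNMB lost the call against the low dose with any 1 of the 4 libraries left out (adjusted p up to 0.41).

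CACGTG, the E-box core found in the element that TFEB binds, was searched the same way in the promoters of the 39 genes higher than both vehicle and the low dose. Of 28 with an entry, 4 held it (EEPD1, GNPDA1, AMDHD2 and PLIN2), or 14.3%, against 7.73% of 27305 genes. It was in 3 of 26 genes lower than both (11.5%), in 1 of 7 ID and BMP genes that fell (14.3%) and in 1 of 12 called NRF2 targets (8.3%). GGCGCC, a GC-rich element described for BMP SMADs and also searched, was in 0 of the 7 ID and BMP genes, 3 of the 26 lower genes (11.5%), 6 of the 28 higher genes (21.4%) and 2 of the 12 NRF2 targets (16.7%), against 19% of all genes. The 2 amino sugar enzymes are shown, since AMDHD2 held 4 copies within 104 bases. Capitals mark each copy. The positions are chr5:142013028-142013083, - strand for GNPDA1 and chr16:2520267-2520370, + strand for AMDHD2.
GNPDA1: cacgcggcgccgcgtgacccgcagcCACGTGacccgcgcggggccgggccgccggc
AMDHD2: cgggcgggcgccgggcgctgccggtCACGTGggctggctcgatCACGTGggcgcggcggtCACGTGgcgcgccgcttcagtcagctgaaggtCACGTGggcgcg

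Genes that answer fatty acids rose for ANGPTL4, PLIN2 and SLC25A20, 3 of 12 listed and tested, with 0 lower and a median of 0.32 (1.62% of all genes were higher). SLC25A20, the mitochondrial carnitine carrier, had 19.3 and 21.4 CPM in the high-dose libraries, against 14.9, 15.2 and 16.4 CPM in vehicle. SLC25A20 thus changed by 0.39 ± 0.11, adjusted p = 0.049 on the log2 scale. SLC25A20 lost the call against vehicle with any 1 of the 5 libraries left out (adjusted p up to 0.51). Over the low dose 3 of the 12 rose as well, where 0.263% of all genes were higher. They were ANGPTL4, PLIN2 and CPT1A, the enzyme that lets fatty acids into mitochondria. CPT1A had 59.1 and 57.996 CPM at the high dose, 42.01 and 42.5 CPM at the low dose and 46.2, 44.1 and 50.8 CPM in vehicle, and its change was 0.47, adjusted p = 0.026 over the low dose and 0.32, adjusted p = 0.074 over vehicle. CPT1A lost the call against the low dose with any 1 of the 4 libraries left out (adjusted p 0.21 to 0.32). PDK4, another fatty acid-responsive gene, was at 1.25 and 1.68 CPM in the high-dose libraries, against 0.866, 0.852 and 0.976 CPM in vehicle (0.71, adjusted p = 0.38).

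The genes of sterol and fatty acid synthesis were lower where they were called. Of 25 cholesterol genes, all tested, 4 fell against vehicle and 0 rose (1.29% of all genes were lower), with a median of -0.16. SREBF2, the factor that drives these genes, had 73.5 and 76.2 CPM in the high-dose libraries, against 99.4, 102 and 107 CPM in vehicle. For SREBF2 this was a change of -0.46 ± 0.09, adjusted p = 0.0021. MSMO1, a sterol demethylase, had 31.5 and 32.04 CPM in the high-dose libraries, against 41.5, 41.2 and 42.6 CPM in vehicle and fell against vehicle (-0.40 ± 0.10, adjusted p = 0.014) and against the low dose (-0.53 ± 0.10, adjusted p = 0.0049), the 1 cholesterol gene called in both. Of 12 fatty acid synthesis genes, SREBF1 (43.8 and 44.7 CPM at the high dose, against 63.9, 64.2 and 60.3 CPM in vehicle) and FADS2, a desaturase (58.8 and 60.2 CPM, against 81.04, 81.1 and 72.7 CPM), fell, with changes of -0.51 ± 0.10 and -0.40 ± 0.09 (adjusted p = 0.0016 and 0.008). In SREBF2, SREBF1 and FADS2 the low and medium doses lay below vehicle too. SREBF2 was at 94.5 CPM or less in all 57 extract libraries of the series, below every vehicle library. With 1 library left out, 0 to 3 of the 25 cholesterol genes and 0 to 2 of the 12 were called. FADS2 lost the call against vehicle without high replicate 1 or high replicate 2 (adjusted p up to 0.14). SREBF2 and SREBF1 lost the call against vehicle without high replicate 1 (adjusted p up to 0.081 and 0.057). MSMO1 lost the call against vehicle without high replicate 1, high replicate 2 or vehicle replicate 3 (adjusted p up to 0.18). MSMO1 lost the call against the low dose without high replicate 1, high replicate 2 or low replicate 1 (adjusted p up to 0.13).

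Most listed ID genes and BMP targets fell against vehicle. Of 12 listed ID genes and BMP targets, all tested, 8 fell against vehicle and 0 rose, with a median of -0.82, where 1.29% of all genes were lower. In the comparison with the low dose 5 fell, with a median of -0.75, where 0.232% of all genes were lower. In the low dose against vehicle 0 were called and the median was -0.01, and at the medium dose 0 were called and the median was -0.18. ID2 is gene ENSG00000115738 on chromosome 2, 8678845 to 8684453, + strand. ID2 had 13.97 and 13.4 CPM in the high-dose libraries, against 27.2, 26.3 and 25.7 CPM in vehicle. The low dose gave 33.6 and 27.7 CPM and the medium dose 25.1 and 23.5 CPM. The high-dose libraries lay below all other Soyo-san and vehicle libraries, with a change of -0.94 ± 0.09, adjusted p = 1.5e-09 against vehicle and -1.16 ± 0.09, adjusted p = 1.1e-10 against the low dose. ID3 is gene ENSG00000117318 on chromosome 1, 23557918 to 23559794, - strand. ID3 had 95.3 and 98.8 CPM in the high-dose libraries, against 250.5, 261 and 217 CPM in vehicle. At the low dose ID3 was at 232 and 196 CPM and at the medium dose at 191 and 172 CPM. The medium dose lay between the low and the high dose, and the high dose differed by -1.32 ± 0.23, adjusted p = 0.0003 against vehicle and -1.14 ± 0.24, adjusted p = 0.012 against the low dose. ID1, given here after its values were seen, had 141 and 178 CPM in the high-dose libraries, against 291, 285 and 261 CPM in vehicle. Against vehicle ID1 changed by -0.80 ± 0.23, adjusted p = 0.043. ID1 stood against the low dose at -0.83, adjusted p = 0.18.

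The inhibitory SMADs, which are both targets and brakes of BMP and TGF-beta signals, fell too. SMAD6 is gene ENSG00000137834 on chromosome 15, 66702228 to 66782848, + strand. SMAD6 had 10.97 and 10.5 CPM in the high-dose libraries, against 18.5, 18.5 and 20.5 CPM in vehicle. Its low-dose values were 15.9 and 18.2 CPM and its medium-dose values 14.4 and 15.5 CPM. SMAD6 fell, with a change of -0.84 ± 0.11 against vehicle and -0.67 ± 0.12 against the low dose (adjusted p = 5.5e-06 and 0.0016). SMAD7, also given after its values were seen, had 23.2 and 20.7 CPM in the high-dose libraries, against 31.8, 30.3 and 32.2 CPM in vehicle. SMAD7 differed from vehicle by -0.52 ± 0.11, adjusted p = 0.0028. SMAD9, a receptor-activated SMAD, had 1.83 and 2.33 CPM in the high-dose libraries, against 4.12, 4.91 and 4.37 CPM in vehicle. SMAD9 thus changed by -1.10 ± 0.25, adjusted p = 0.0066 on the log2 scale. ID4 had 1.44 and 1.55 CPM in the high-dose libraries, against 3.54, 3.65 and 3.18 CPM in vehicle. For ID4 this was a change of -1.20 ± 0.24, adjusted p = 0.0017. NOG, which codes for the BMP antagonist noggin, had 0.856 and 0.874 CPM in the high-dose libraries, against 2.102, 1.74 and 1.53 CPM in vehicle. That gave NOG a change of -1.05 ± 0.24, adjusted p = 0.0078. In these genes, as in ID1 to ID3, no high-dose library overlapped vehicle. The ligand genes BMP4 and BMP2 had log2 fold changes of -0.53 and 0.46 (adjusted p = 0.085 and 0.45), and the receptor-like BAMBI and the antagonist GREM1 of -0.29 and 0.36 (adjusted p = 0.37 and 0.28). With 1 library left out, 4 to 7 of the 12 were called against vehicle and 2 to 3 against the low dose. Against the low dose, ID2 and ID4 kept their calls (adjusted p up to 2.6e-07 and 0.03). ID4 lost the call against vehicle without high replicate 1 (adjusted p up to 0.065). SMAD9 lost the call against vehicle without high replicate 1 or high replicate 2 (adjusted p up to 0.21). NOG lost the call against vehicle without high replicate 1, high replicate 2 or vehicle replicate 1 (adjusted p up to 0.13). ID3 lost the call against the low dose without high replicate 1, high replicate 2 or low replicate 1 (adjusted p up to 0.26). SMAD6 lost the call against the low dose without high replicate 2 or low replicate 2 (adjusted p up to 0.099).

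**Figure D3:**
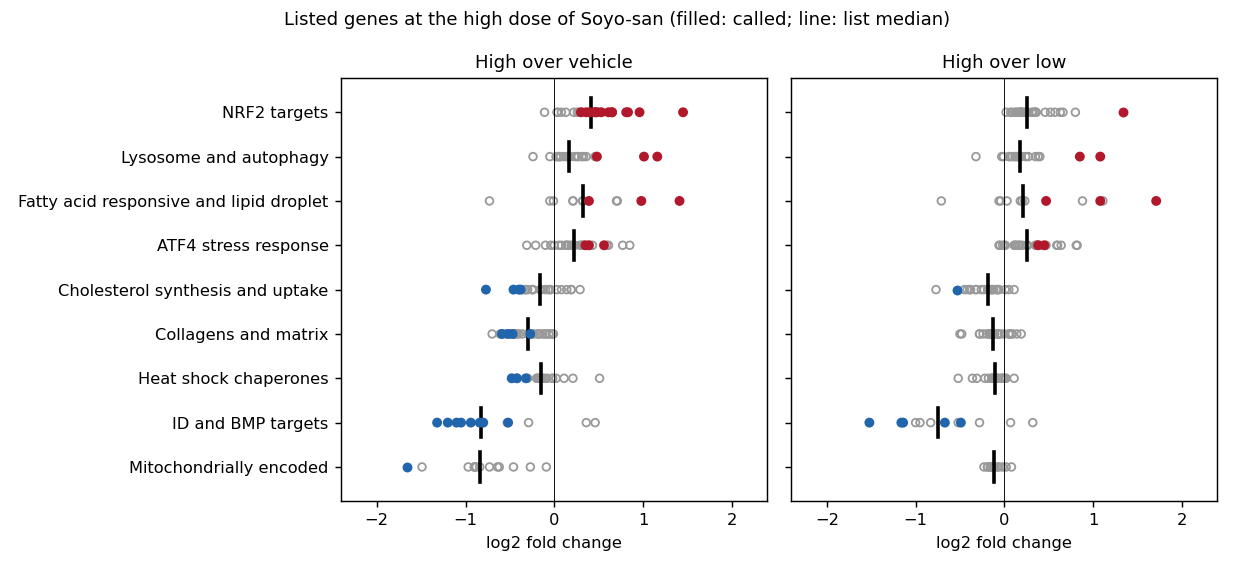
Log2 fold change of each tested member of 9 gene lists at the high dose of Soyo-san, over vehicle (left) and over the low dose (right), with filled points for called genes (red higher, blue lower) and a black line at the list median. The ID and BMP list had medians of -0.82 and -0.75, whereas the mitochondrially encoded genes had -0.84 over vehicle and -0.12 over the low dose.

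Several genes outside that list fell against both vehicle and the low dose. LGR6, a receptor for R-spondins, is gene ENSG00000133067 on chromosome 1, 202193901 to 202319781, + strand. LGR6 had 2.18 and 2.52 CPM in the high-dose libraries, against 7.01, 5.31 and 7.85 CPM in vehicle. In low-dose libraries it reached 5.42 and 5.21 CPM, and in medium-dose libraries 3.56 and 4.199 CPM. The medium dose lay between low and high. The change at the high dose was -1.51 ± 0.20, adjusted p = 4.9e-06 against vehicle and -1.17 ± 0.21, adjusted p = 0.0019 against the low dose. ATOH8, a helix-loop-helix factor, had 12.6 and 12.8 CPM in the high-dose libraries, against 29.7, 32.04 and 30.3 CPM in vehicle. Against vehicle ATOH8 changed by -1.27 ± 0.20, adjusted p = 5.6e-05. Lower doses gave 28.9 and 25.4 CPM (low) and 20.7 and 23.03 CPM (medium). SAMD11, a nuclear protein with a SAM domain, had 51.9 and 57.3 CPM in the high-dose libraries, against 148, 139 and 139 CPM in vehicle. SAMD11 differed from vehicle by -1.38 ± 0.17, adjusted p = 2.2e-06. The low dose gave 119 and 110.4 CPM and the medium dose 106 and 97.8 CPM. LINC02593, a noncoding RNA beside SAMD11 on chromosome 1 (916865 to 921016, against 923928 to 944581 for SAMD11), had 5.14 and 4.47 CPM in the high-dose libraries, against 11.6, 8.84 and 10.5 CPM in vehicle. LINC02593 thus changed by -1.10 ± 0.20, adjusted p = 0.00055 on the log2 scale. DLX2, a homeobox factor, had 12.7 and 13.8 CPM in the high-dose libraries, against 18.5, 20.6 and 17.8 CPM in vehicle. That gave DLX2 a change of -0.52 ± 0.13, adjusted p = 0.018. In these 5 genes every high-dose library lay below every vehicle and low-dose library. MALL, a membrane raft protein, had 7.67 and 7.67 CPM in the high-dose libraries, against 11.5, 10.8 and 12.3 CPM in vehicle. Against vehicle MALL changed by -0.59 ± 0.11, adjusted p = 0.0015. RASA4B, a GTPase activator whose reads may be shared with near-identical copies, had 11.9 and 11.2 CPM in the high-dose libraries, against 29.97, 24.1 and 23.4 CPM in vehicle. RASA4B differed from vehicle by -1.16 ± 0.20, adjusted p = 0.00031. The noncoding gene ENSG00000274956, which overlaps NKAIN3 on the same strand, had 5.603 and 4.11 CPM in the high-dose libraries, against 8.33, 7.58 and 9.12 CPM in vehicle. ENSG00000274956 thus changed by -0.78 ± 0.15, adjusted p = 0.0014 on the log2 scale. Against the low dose only MALL of the genes named here kept its call with each library left out (adjusted p up to 0.044). LINC02593, MALL and ENSG00000274956 lost the call against vehicle without high replicate 2 (adjusted p up to 0.06, 0.053 and 0.19). DLX2 lost the call against vehicle without high replicate 1, high replicate 2 or vehicle replicate 2 (adjusted p up to 0.26). LGR6 and SAMD11 lost the call against the low dose without high replicate 1 (adjusted p up to 0.12 and 0.065). ENSG00000274956 lost the call against the low dose without high replicate 2 (adjusted p up to 0.32). ATOH8, LINC02593 and DLX2 lost the call against the low dose without high replicate 1, high replicate 2 or low replicate 1 (adjusted p up to 0.11, 0.23 and 0.36). RASA4B lost the call against the low dose with any 1 of the 4 libraries left out (adjusted p up to 0.43).

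A few matrix and contractile genes were lower than vehicle, and most were not called. Of 31 collagen and matrix genes, all tested, 4 fell against vehicle and 0 rose (1.29% of all genes were lower), and all 31 log2 fold changes were below 0 (median -0.30), while against the low dose 0 were called (median -0.13, 25 of 31 below 0). COL1A1, the main chain of type I collagen, had 2541 and 2854 CPM in the high-dose libraries, against 4124, 4134 and 3937 CPM in vehicle. At the low dose COL1A1 was at 2853 and 3032 CPM and at the medium dose at 3209.9 and 3254 CPM. All doses of Soyo-san lay below vehicle, with changes of -0.59 ± 0.12, adjusted p = 0.0035 at the high dose and -0.47 ± 0.12, adjusted p = 0.042 at the low dose, and high and low overlapped. COL1A2, its partner chain, had 1299 and 1386 CPM in the high-dose libraries, against 1970.3, 1958 and 1856 CPM in vehicle. For COL1A2 this was a change of -0.52 ± 0.13, adjusted p = 0.021. Over all 57 extract libraries of the series COL1A1 reached at most 3478 CPM and COL1A2 1717 CPM, both below every vehicle library. SPARC, a collagen-binding glycoprotein, had 1944 and 2057 CPM in the high-dose libraries, against 2461, 2488 and 2285 CPM in vehicle. That gave SPARC a change of -0.27 ± 0.07, adjusted p = 0.023. COL8A1, a short-chain collagen, had 124 and 122 CPM in the high-dose libraries, against 167, 173 and 169.96 CPM in vehicle. Its low-dose values were 168 and 179 CPM and its medium-dose values 157 and 172 CPM. Only the high dose lay below vehicle without overlap. Against vehicle COL8A1 changed by -0.47 ± 0.13, adjusted p = 0.027. Of 20 targets of YAP and SRF, 3 fell and 0 rose (median -0.15). Against the low dose 1 fell, the muscle ankyrin repeat gene ANKRD1 (-0.87), beside 0.232% of all genes. ANKRD1 lost that call with any 1 of the 4 libraries left out. CCN2, a matricellular growth factor, had 116 and 117 CPM in the high-dose libraries, against 176, 179.9 and 173 CPM in vehicle. In low-dose libraries it reached 180.2 and 176 CPM, and in medium-dose libraries 169 and 193 CPM. CCN2 differed from vehicle by -0.60 ± 0.15, adjusted p = 0.018. SRF itself had 76.6 and 80.4 CPM in the high-dose libraries, against 101, 102 and 104 CPM in vehicle. SRF thus changed by -0.38 ± 0.08, adjusted p = 0.002 on the log2 scale. CNN2, a calponin, had 198 and 204 CPM in the high-dose libraries, against 257, 253 and 249 CPM in vehicle. For CNN2 this was a change of -0.33 ± 0.09, adjusted p = 0.022. With 1 library left out, 0 to 3 of the 31 and 0 to 2 of the 20 were called. COL1A1 and SRF lost the call against vehicle without high replicate 1 (adjusted p up to 0.16 and 0.099). COL1A2 and SPARC lost the call against vehicle without high replicate 1, high replicate 2, vehicle replicate 1 or vehicle replicate 2 (adjusted p up to 0.28 and 0.36). COL8A1 and CNN2 lost the call against vehicle with any 1 of the 5 libraries left out (adjusted p up to 0.27 and 0.25). CCN2 lost the call against vehicle without high replicate 1, high replicate 2 or vehicle replicate 2 (adjusted p up to 0.2).

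The unfolded protein, amino acid and heat shock responses showed few calls, beside 1.62% of all genes higher and 1.29% lower than vehicle. Of 28 genes of the ATF4 response, all tested, 3 rose over vehicle and 0 fell (median 0.23). ASNS, which makes asparagine, had 80.3 and 83.01 CPM in the high-dose libraries, against 56.8, 55.03 and 54.7 CPM in vehicle. That gave ASNS a change of 0.56 ± 0.13, adjusted p = 0.012. SESN2, a sestrin that signals amino acid lack, had 32.5 and 35.2 CPM in the high-dose libraries, against 25.4, 25.7 and 26.7 CPM in vehicle. Against vehicle SESN2 changed by 0.39 ± 0.07, adjusted p = 0.0003. AARS1, the alanine tRNA synthetase, had 263 and 264 CPM in the high-dose libraries, against 206, 203 and 209.5 CPM in vehicle. AARS1 differed from vehicle by 0.35 ± 0.06, adjusted p = 0.0002. SESN2 and AARS1 also rose over the low dose (0.45 ± 0.07, adjusted p = 0.00047 and 0.38 ± 0.07, adjusted p = 0.00098). Of 18 endoplasmic reticulum chaperones 1 was called, DNAJB11, with 314 and 317 CPM in the high-dose libraries, against 251, 260.4 and 243 CPM in vehicle. Lower doses gave 334 and 293 CPM (low) and 317 and 294 CPM (medium). It stood above vehicle at every dose. DNAJB11 thus changed by 0.33 ± 0.09, adjusted p = 0.035 on the log2 scale. Of 20 heat shock chaperones 3 fell and 0 rose (median -0.15). HSPA8, the constitutive chaperone of the HSP70 family, had 983 and 986 CPM in the high-dose libraries, against 1343, 1332 and 1284 CPM in vehicle. The low dose gave 1276 and 1165 CPM and the medium dose 1201 and 1105 CPM. For HSPA8 this was a change of -0.42 ± 0.07, adjusted p = 0.00036. Every dose lay below vehicle and the high dose lowest. HSP90AB1 had 1355 and 1375 CPM in the high-dose libraries, against 1687, 1663 and 1745 CPM in vehicle. That gave HSP90AB1 a change of -0.32 ± 0.07, adjusted p = 0.006. HSPA1B, whose reads may be shared with its near-identical copy HSPA1A, had 88.9 and 90.5 CPM in the high-dose libraries, against 126, 125 and 124 CPM in vehicle. Against vehicle HSPA1B changed by -0.48 ± 0.11, adjusted p = 0.0099. The low dose was lower still, at 80.7 and 85.8 CPM. ASNS lost the call against vehicle without high replicate 1, high replicate 2 or vehicle replicate 3 (adjusted p up to 0.16). SESN2 lost the call against vehicle without high replicate 2 (adjusted p up to 0.055). DNAJB11 lost the call against vehicle with any 1 of the 5 libraries left out (adjusted p up to 0.27). HSP90AB1 and HSPA1B lost the call against vehicle without high replicate 1 or high replicate 2 (adjusted p up to 0.12 and 0.16). SESN2 lost the call against the low dose without high replicate 2 (adjusted p up to 0.062). AARS1 lost the call against the low dose without low replicate 1 (adjusted p up to 0.079).

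In the inflammatory, interferon and growth lists the called genes were also few. Over all genes 1.62% were higher and 1.29% lower than vehicle, and lists with 1 called gene, or with 1 in a direction, lie too near that share to be read as a result about the list. Of 21 tested NF-kB genes (23 listed) 2 rose, ICAM1 and LIF, a cytokine of the interleukin 6 family with 31.9 and 30.6 CPM in the high-dose libraries, against 23.1, 20.7 and 21.97 CPM in vehicle. LIF differed from vehicle by 0.51 ± 0.08, adjusted p = 0.00016. Its low-dose libraries had 26.5 and 27.0 CPM, also above vehicle, and high against low was 0.22 ± 0.09, adjusted p = 0.72. LIF was at 23.98 CPM or more in all 57 extract libraries, above every vehicle library. Against the low dose 1 of the 21 was called higher, ICAM1, and 1 lower, CCL2 (-0.85), beside 0.263% and 0.232% of all genes. CCL2 lost that call without high replicate 1, high replicate 2 or low replicate 1. Of 24 tested interferon genes (25 listed) 3 rose (median 0.28, all 24 above 0). IFIT1 had 13.7 and 15.5 CPM in the high-dose libraries, against 11.6, 8.76 and 9.33 CPM in vehicle. IFIT1 thus changed by 0.56 ± 0.15, adjusted p = 0.034 on the log2 scale. IFI44 had 43.6 and 46.2 CPM in the high-dose libraries, against 33.5, 31.8 and 30.4 CPM in vehicle. For IFI44 this was a change of 0.49 ± 0.12, adjusted p = 0.017. At the low dose IFI44 was at 46.8 and 41.8 CPM (0.47 ± 0.12, adjusted p = 0.037 over vehicle), and high against low was 0.02 ± 0.13. RSAD2 stayed below 1 CPM, at 0.506 and 0.971 CPM in the high-dose libraries, against 0.082, 0.203 and 0.339 CPM in vehicle. That gave RSAD2 a change of 1.83 ± 0.50, adjusted p = 0.033. Over the low dose 0 of the 24 were called. Of 19 tested p53 targets (20 listed) 2 rose, GDF15 and GADD45A, a growth arrest gene with 68.2 and 68.6 CPM in the high-dose libraries, against 54.4, 55.4 and 51.8 CPM in vehicle. Against vehicle GADD45A changed by 0.34 ± 0.10, adjusted p = 0.038. Of 22 hypoxia genes 2 rose, VEGFA (0.36 ± 0.10, adjusted p = 0.049) and NDRG1 (0.25 ± 0.06, adjusted p = 0.02), and EGLN3, an oxygen-sensing hydroxylase, fell (-0.46 ± 0.12, adjusted p = 0.018). Of 23 immediate early and MAPK feedback genes, FOSB and the phosphatase DUSP4 rose (0.27 ± 0.06, adjusted p = 0.01 for DUSP4) and EGR1 fell. Of 26 DNA replication genes 1 rose, the polymerase subunit POLE2 (0.47 ± 0.10, adjusted p = 0.0027), and of 20 tested drug metabolism genes (24 listed) 1 rose, the glutathione transferase MGST1, with 75.3 and 80.2 CPM in the high-dose libraries, against 46.1, 51.5 and 42.8 CPM in vehicle. MGST1 differed from vehicle by 0.73 ± 0.16, adjusted p = 0.0044. Its low-dose libraries, at 74.6 and 58.8 CPM, also lay above vehicle, and high against low was 0.22 ± 0.17. Of 9 tested glucocorticoid targets (10 listed) 2 fell, DUSP1 (-0.29 ± 0.08, adjusted p = 0.043) and PER1. None of 25 G2/M genes, 9 tested AhR targets (10 listed), 30 proteasome subunits, 7 LXR targets or 7 tested metallothionein genes (10 listed) was called against vehicle. At an unadjusted p under 0.05, 2670 of all 19366 genes differed from vehicle. LIF kept its call (adjusted p up to 0.014). IFIT1, IFI44 and NDRG1 lost the call against vehicle without high replicate 1, high replicate 2, vehicle replicate 2 or vehicle replicate 3 (adjusted p up to 0.41, 0.24 and 0.34). RSAD2 lost the call against vehicle without high replicate 2, vehicle replicate 1 or vehicle replicate 2 (adjusted p up to 0.6). GADD45A, VEGFA and DUSP1 lost the call against vehicle with any 1 of the 5 libraries left out (adjusted p up to 0.27, 0.29 and 0.6). EGLN3 lost the call against vehicle without high replicate 1, high replicate 2 or vehicle replicate 1 (adjusted p up to 0.35). DUSP4 lost the call against vehicle without high replicate 1, high replicate 2 or vehicle replicate 2 (adjusted p up to 0.15). POLE2 and MGST1 lost the call against vehicle without high replicate 2 (adjusted p up to 0.081 and 0.11). NDRG1 lost the call against the low dose without high replicate 2 or low replicate 2 (adjusted p up to 0.15).

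The genes below stood apart from vehicle at every dose, with all 6 Soyo-san libraries on 1 side of all 3 of vehicle. So did others given above, among them LIF, MGST1, POLE2, GADD45A, BEST1, IFI44, IFIT1, OSGIN1, ASNS, CTSL and DUSP4, all higher than vehicle. In the same way COL1A2, SPARC, SRF, CNN2, HSP90AB1, EGLN3 and DUSP1, among others, lay lower than vehicle at every dose. EGR1, an immediate early factor, is gene ENSG00000120738 on chromosome 5, 138465490 to 138469315, + strand. EGR1 had 55.9 and 59.2 CPM in the high-dose libraries, against 147, 165 and 167 CPM in vehicle. At the low dose EGR1 was at 55.01 and 43.7 CPM and at the medium dose at 65.8 and 55.3 CPM. All 6 Soyo-san libraries lay below all 3 of vehicle, with changes of -1.47 ± 0.38, adjusted p = 0.023 at the high and -1.69 ± 0.38, adjusted p = 0.018 at the low dose, and high against low was 0.22 ± 0.40. The clock genes NR1D1 and PER1, 2 of 16 tested (18 listed), showed the same pattern, beside 1.29% of all genes lower than vehicle at the high dose. NR1D1, a nuclear receptor that represses the clock, had 55.8 and 56.8 CPM in the high-dose libraries, against 99.5, 98.4 and 97.6 CPM in vehicle. Its low-dose values were 55.4 and 49.6 CPM and its medium-dose values 58.1 and 55.5 CPM. Against vehicle it was -0.81 ± 0.17, adjusted p = 0.0031 at the high and -0.91 ± 0.17, adjusted p = 0.0038 at the low dose. PER1 had 35.8 and 34.9 CPM in the high-dose libraries, against 47.4, 41.5 and 48.2 CPM in vehicle. PER1 thus changed by -0.37 ± 0.10, adjusted p = 0.041 on the log2 scale. NDUFB1, a subunit of respiratory complex I, had 43.5 and 48.1 CPM in the high-dose libraries, against 20.8, 20.9 and 17.3 CPM in vehicle. In low-dose libraries it reached 52.2 and 47.5 CPM, and in medium-dose libraries 42.3 and 40.4 CPM. It stood above vehicle by 1.22 ± 0.24, adjusted p = 0.0017 at the high and 1.34 ± 0.24, adjusted p = 0.0026 at the low dose. The ribosomal protein pseudogene RPL23AP42 had 124 and 113 CPM in the high-dose libraries, against 52.9, 60.8 and 52.1 CPM in vehicle. Lower doses gave 138 and 131 CPM (low) and 124 and 105 CPM (medium). For RPL23AP42 this was a change of 1.10 ± 0.30, adjusted p = 0.036. RPSAP12, another one, had 3.35 and 2.85 CPM in the high-dose libraries, against 8.86, 9.29 and 7.85 CPM in vehicle. That gave RPSAP12 a change of -1.49 ± 0.40, adjusted p = 0.031. Reads of both pseudogenes may be shared with their parent genes. C7orf25, which overlaps ENSG00000256646 on the same strand, had 14.1 and 15.1 CPM in the high-dose libraries, against 6.64, 4.99 and 5.68 CPM in vehicle. Against vehicle C7orf25 changed by 1.34 ± 0.37, adjusted p = 0.038. Of the 13 mitochondrially encoded genes MT-ATP8, a subunit of ATP synthase whose gene overlaps MT-ATP6, was called, with 406 and 345 CPM in the high-dose libraries, against 1081, 1359.6 and 1119 CPM in vehicle. The low dose gave 420.3 and 392 CPM and the medium dose 546 and 444 CPM. MT-ATP8 differed from vehicle by -1.66 ± 0.48, adjusted p = 0.046. All 13 log2 fold changes of the high dose against vehicle were below 0, beside the mitochondrial share of counts of 7.32% and 7.39% at the high dose, against 10.1% to 10.3% in vehicle. The list had a median against vehicle of -0.84 at the high, -0.61 at the medium and -0.74 at the low dose, and the median of high against low was -0.12. TUBA1B-AS1, annotated as antisense to the tubulin gene TUBA1B, had 0.195 and 0.162 CPM in the high-dose libraries, against 136, 136 and 135 CPM in vehicle. TUBA1B-AS1 thus changed by -9.54 ± 2.7, adjusted p = 0.042 on the log2 scale. Over all extract libraries of the series it ranged from 0 to 655 CPM. EGR1 reached at most 139.9 CPM in those 57 libraries, below every vehicle library.

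NEAT1 and PADI2 differed from vehicle at every dose, with no overlap. NEAT1, the noncoding RNA that forms paraspeckles, is gene ENSG00000245532 on chromosome 11, 65422774 to 65445540, + strand. NEAT1 had 923 and 799.6 CPM in the high-dose libraries, against 394, 362 and 363 CPM in vehicle. At the low dose NEAT1 was at 578 and 619.5 CPM and at the medium dose at 660.3 and 608 CPM. It stood above vehicle at every dose (1.21 ± 0.15, adjusted p = 1.3e-06 at the high and 0.68 ± 0.15, adjusted p = 0.013 at the low dose), and the high dose was 0.52 ± 0.16, adjusted p = 0.24 over the low. PADI2, which turns arginine into citrulline in proteins, had 4.902 and 4.499 CPM in the high-dose libraries, against 9.32, 9.003 and 9.46 CPM in vehicle. Its low-dose values were 5.95 and 6.45 CPM and its medium-dose values 4.82 and 5.35 CPM. Its change against vehicle was -0.98 ± 0.17, adjusted p = 0.00027 at the high and -0.58 ± 0.16, adjusted p = 0.06 at the low dose. The highest PADI2 level in the 57 extract libraries of the series was 8.83 CPM, below every vehicle library. Without 1 library the call against vehicle remained for NEAT1 and PADI2 (adjusted p up to 0.00046 and 0.033). For RPL23AP42, RPSAP12, C7orf25, MT-ATP8 and TUBA1B-AS1 it was lost on leaving out either high-dose library or any 1 of the 3 vehicle libraries (adjusted p up to 0.26, 0.35, 0.27, 0.40 and 0.39). EGR1 lost the call against vehicle without high replicate 1, high replicate 2, vehicle replicate 2 or vehicle replicate 3 (adjusted p up to 0.25). NR1D1 lost the call against vehicle without high replicate 1 or high replicate 2 (adjusted p up to 0.08). PER1 lost the call against vehicle without high replicate 1, high replicate 2, vehicle replicate 1 or vehicle replicate 3 (adjusted p up to 0.34). NDUFB1 lost the call against vehicle without high replicate 2 (adjusted p up to 0.055).

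**Figure D4:**
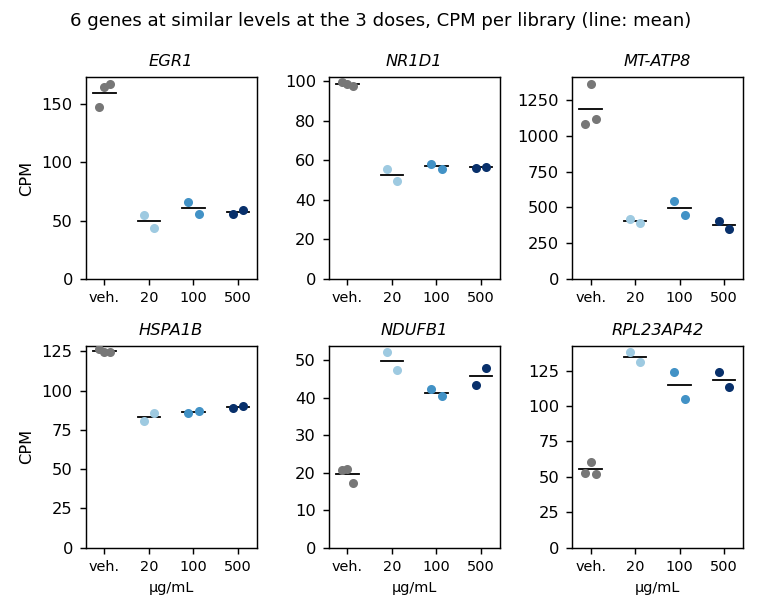
CPM of 6 genes in each library (points) and the group mean (line), in vehicle (veh.) and at 20, 100 and 500 µg/mL of Soyo-san, with each y axis starting at 0. In each gene the 6 Soyo-san libraries lie on 1 side of the 3 vehicle libraries.

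The change from low to high dose was then set against the mean change from low to high dose in 4 extracts of the series (Guibi-tang, Menthae Herba, Saengmaek-san and Saposhnikoviae Radix), which were given at the same 500 and 20 µg/mL with 3 libraries each. Each change was taken within 1 library set. Okbyeongpung-san, the other extract of set 14, was given at the same doses with 1 library each. It is not in that mean, and its log2 ratios of high over low are given beside the tested values with no test. Its high-dose library had a slope of log2 level over vehicle on log2 transcript length of -0.267, below the limit of -0.15 used here. It held 11.6% mitochondrial counts, against 7.07% in the low-dose library. Whether the tilt moved its ratios was not tested. In the mean, Menthae Herba high replicate 3 (-0.227) and Saposhnikoviae Radix high replicate 2 (-0.303) and low replicate 3 (-0.216) were also below that limit. The test uses the same high-dose and low-dose Soyo-san libraries as the comparison of those doses, so genes chosen by that comparison are not independent of it. In this test 564 genes (2.91%) differed, 477 higher for Soyo-san (2.46%) and 87 lower (0.449%). Of the 39 genes higher than both vehicle and the low dose, 17 differed from the other extracts in the same direction and 0 in the opposite one. Of the 35 lower genes, 11 differed in the same and 2 in the opposite direction. The count of 564 came to 250 to 293 when a high-dose or low-dose Soyo-san library was left out.

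Several rises of Soyo-san differed from the mean of the other extracts. SQSTM1 rose by 1.08 ± 0.17 from low to high dose of Soyo-san, against 0.67 for Menthae Herba, 0.02 for Saposhnikoviae Radix, -0.17 for Saengmaek-san and 0.03 for Guibi-tang, a difference of 0.95 ± 0.18, adjusted p = 0.00088. Okbyeongpung-san, outside that mean, went further than Soyo-san for SQSTM1, with 2719 CPM in its 1 high-dose library, against 604.5 CPM in its 1 low-dose library (log2 ratio 2.17). GPNMB rose by 0.85 ± 0.19, against -0.73 for Menthae Herba, -0.26 for Saposhnikoviae Radix, -0.42 for Saengmaek-san and 0.06 for Guibi-tang (1.19 ± 0.20, adjusted p = 0.00023). ICAM1 rose by 0.55 ± 0.09, where the 4 extracts of that mean were all below 0, from -0.91 for Guibi-tang to -0.03 for Saengmaek-san (0.97 ± 0.09, adjusted p = 1.5e-08). FOSB (1.36 ± 0.23, adjusted p = 0.00016), UAP1L1 (0.82 ± 0.12, adjusted p = 2.8e-05), IGFN1 (0.98 ± 0.25, adjusted p = 0.018), ATP2A3 (0.92 ± 0.21, adjusted p = 0.0052) and SH2D5 (0.78 ± 0.20, adjusted p = 0.025) also differed upward. FBXO32 did so against the mean (0.83 ± 0.10, adjusted p = 6.3e-07), although Guibi-tang gave a larger rise (1.08 for Soyo-san, against -0.27 for Menthae Herba, -0.15 for Saposhnikoviae Radix, -0.24 for Saengmaek-san and 1.66 for Guibi-tang). Guibi-tang also gave larger rises of IGFN1 (1.12, against 1.04 for Soyo-san) and SH2D5 (1.57, against 1.03). Menthae Herba came close to Soyo-san for ATP2A3 (1.07 and 1.11), as did Guibi-tang for UAP1L1 (0.73 and 0.82). HMOX1, GDF15, ANGPTL4 and PLIN2 did not pass this test (-0.03 ± 0.13, adjusted p = 0.99 for HMOX1, 0.46 ± 0.23, adjusted p = 0.43 for GDF15, -0.48 ± 0.28, adjusted p = 0.56 for ANGPTL4 and -0.22 ± 0.11, adjusted p = 0.39 for PLIN2), and Guibi-tang and Menthae Herba gave larger rises of GDF15, ANGPTL4 and PLIN2. The single Okbyeongpung-san libraries gave log2 ratios above the Soyo-san changes for HMOX1 (3.02), GDF15 (3.00), ANGPTL4 (3.76) and PLIN2 (1.70), and below them for GPNMB (0.05), ICAM1 (0.30), FOSB (-0.22), UAP1L1 (0.47) and FBXO32 (0.16). Of the 22 lysosome genes 6 were higher and 1 lower in this test (median 0.41), where 2.46% of all genes were higher and 0.449% lower. LAMP1 and CTSB were among the 6 although neither was called against vehicle.

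The falls in BMP genes also differed in part. ID3 changed by -1.14 ± 0.24 from low to high dose of Soyo-san, against -0.57 for Menthae Herba, 0.07 for Saposhnikoviae Radix, -0.39 for Saengmaek-san and 0.80 for Guibi-tang, a difference of -1.12 ± 0.26, adjusted p = 0.0076. SMAD9 was -0.95 ± 0.26, against -0.28 for Menthae Herba, 0.44 for Saposhnikoviae Radix, 0.43 for Saengmaek-san and 1.17 for Guibi-tang (-1.39 ± 0.28, adjusted p = 0.0017). Okbyeongpung-san, outside that mean, also had less SMAD9 at the high dose, at 2.08 CPM in its high-dose library, against 4.25 CPM in its low-dose library (log2 ratio -1.03). For ID3 its log2 ratio was 0.60, for ID2 -0.36, for SMAD6 -0.12, for DLX2 0.04 and for ATOH8 -0.06. ID2 (-0.45 ± 0.10, adjusted p = 0.0049), SMAD6 (-0.52 ± 0.13, adjusted p = 0.016), DLX2 (-0.72 ± 0.15, adjusted p = 0.0022) and ATOH8 (-0.80 ± 0.22, adjusted p = 0.037) were lower than the mean of the others too. Menthae Herba, by textbook a constituent of Soyo-san, came close to it for ID2 (-1.16 for Soyo-san and -1.14 for Menthae Herba) and past it for SMAD6 (-0.67 and -1.0). Of the 12 ID and BMP genes 4 were lower and 0 higher in this test, where 0.449% of all genes were lower. In LGR6 and PADI2 the difference ran the other way, since the mean of the other extracts was lower still (1.26 ± 0.24, adjusted p = 0.00069 and 1.01 ± 0.20, adjusted p = 0.0011). Collagen genes stood higher for Soyo-san than for the mean of the others in this test, with a median of 0.75. Of the 31, 12 were called higher, where 2.46% of all genes were. Among the 12 was COL1A1 (-0.13 ± 0.13, against -1.48 for Menthae Herba, -0.13 for Saposhnikoviae Radix, -0.20 for Saengmaek-san and -2.77 for Guibi-tang).

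**Figure D5:**
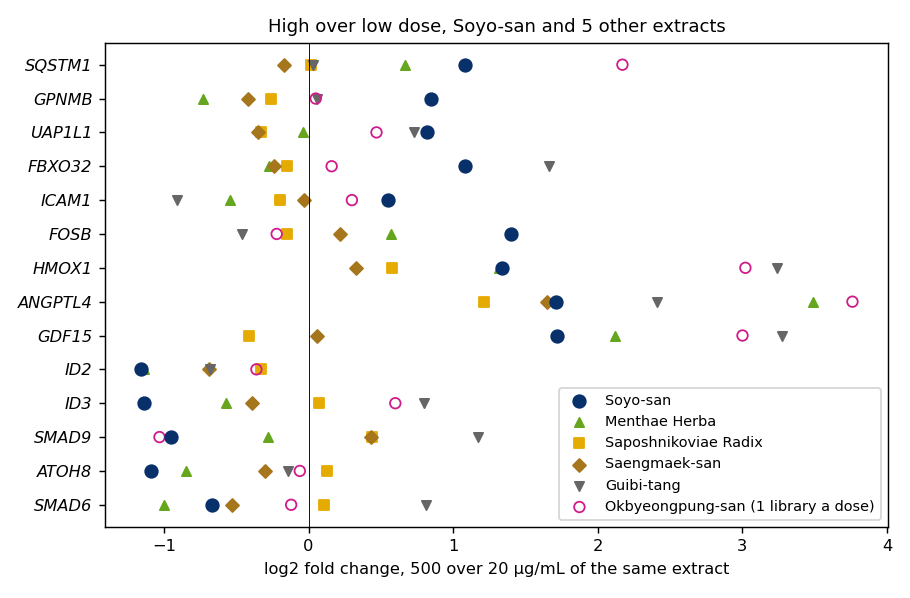
Log2 fold change of 500 over 20 µg/mL of the same extract for 14 genes, with Soyo-san as large circles, 4 other extracts as smaller symbols and Okbyeongpung-san, with 1 library a dose, as open circles. Soyo-san lies to the right of all others for GPNMB and ICAM1 and to the left of them for ID3, whereas Okbyeongpung-san lies beyond it for SQSTM1 (2.17) and SMAD9 (-1.03), and Soyo-san is inside the range of the others for HMOX1 and GDF15.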

How the data were processed

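SW1783 messenger RNA was sequenced in 60 libraries. The authors deposited 1 table of expected counts for 60675 genes, and the submitters' processing notes name RSEM 1.3.3, STAR 2.7.3a, FastQC 0.11.9 and Trim Galore 0.6.5, without their roles. The annotation release, strand setting and filters are not given in the sources used here. Expected counts (9.62% of values not whole) were rounded. Symbols from the reference tables matched 41209 gene IDs (67.9%), and coordinates are those of GENCODE on GRCh38. Library totals ran from 19031094 to 37686975, so low genes are measured least precisely.

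Genes were kept by filterByExpr (minimum count 10, minimum total 15), which left 19366. Counts were scaled by TMM and fitted with edgeR 4.0.16 (limma 3.58.1, R 4.3.3), 1 mean per group over 25 groups and 60 libraries, leaving 35 residual degrees of freedom. Quasi-likelihood tests were adjusted over all genes by Benjamini-Hochberg, with calls at 0.05. Printed CPM are TMM-scaled unless said otherwise, and ± is the standard error of a log2 fold change. The procedure was tested on simulated data.

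Named genes were the 12 largest rises and the 12 largest falls against vehicle (mean log2 CPM of at least 2, with a symbol and no overlap between groups), the 12 rises and 12 falls called in both comparisons with the largest change against the low dose, and up to 4 called members per list, 78 in all. Values of some of them are not reported here and stay within the counts. Members and the 32 gene lists, 6 of them of cell type markers, were chosen with earlier results of these data known. Also tried were replicate blocks, DESeq2 1.42.0, no filter, RLE size factors, fits without single libraries or without libraries whose levels sloped with transcript length, and fits of the compared groups alone. Replicate pairs differed by more than sampling noise (chi-square per degree of freedom 3.14 to 19.8), so none was treated as a duplicate. The low-dose pair had the highest value (19.8), against 8.88 at the medium dose, 3.94 at the high dose and 3.14 to 6.71 in vehicle.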

Additional observations from a re-analysis of the deposited data

Results flagged for a closer look

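The change from low to high dose differed between Soyo-san and the mean of 4 other extracts for 29 of the 78 named genes, by edgeR's quasi-likelihood test with Benjamini-Hochberg adjustment. The values that follow are Soyo-san minus that mean, in log2. Among genes higher at the high dose than in vehicle, the difference was upward for FOSB (1.36), GPNMB (1.19), IGFN1 (0.98), ICAM1 (0.97), SQSTM1 (0.95), ATP2A3 (0.92), FBXO32 (0.83), UAP1L1 (0.82), SH2D5 (0.78) and AARS1 (0.57), and downward for LIF (-0.44). Guibi-tang rose further than Soyo-san in IGFN1, FBXO32 and SH2D5. For AARS1 the changes from low to high dose were 0.38 in Soyo-san, 0.72 in Menthae Herba and -1.6 in Guibi-tang. Saposhnikoviae Radix (-0.12) and Saengmaek-san (0.24) lay below Soyo-san for AARS1. For LIF the changes were 0.22 in Soyo-san, 1.93 in Guibi-tang and 0.0 to 0.42 in the remaining extracts of that mean.

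Among genes lower at the high dose than in vehicle, the difference was downward for SMAD9 (-1.39), ID3 (-1.12), DUSP1 (-0.93), ATOH8 (-0.80), DLX2 (-0.72), SMAD6 (-0.52) and ID2 (-0.45). It was upward for LGR6 (1.26), COL1A1 (1.02), PADI2 (1.01), COL1A2 (0.89), SPARC (0.55), COL8A1 (0.52), CNN2 (0.46), SREBF1 (0.44), FADS2 (0.41) and HSP90AB1 (0.36). In each of these upward genes Guibi-tang fell furthest from low to high dose. HSP90AB1 changed by -0.22 in Soyo-san, against -2.32 in Guibi-tang and -0.13 to 0.10 in the remaining extracts of that mean. SPARC changed by -0.12 in Soyo-san, against -2.01 in Guibi-tang and -0.47 to -0.07 in the remaining extracts. Okbyeongpung-san, with 1 library a dose, is not in that mean, and the change from low to high dose was 1.08 for SQSTM1 and -0.95 for SMAD9 in Soyo-san, against log2 ratios of 2.17 and -1.03 in Okbyeongpung-san. The Okbyeongpung-san high-dose library was tilted with transcript length (slope -0.267). Groups of 2 or 3 libraries were too small for a check of single outlying samples.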

How the results depend on the processing

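Counts of calls depended on the processing more than directions did. High against vehicle (563) came to 780 with DESeq2 and 567 with RLE size factors, 174 with no filter on low counts, 1665 without the 4 libraries, none of Soyo-san or vehicle, that were tilted with transcript length, 4501 with only the compared groups, and 125 to 345 with 1 library left out. High against low (96) came to 167 with DESeq2, 48 with no filter, 269 without the tilted libraries, 37 with only the compared groups, and 28 to 40 with 1 library left out. Genes called in both (74) came to 123, 40, 198 and 34 under the same settings, and to 25 to 67 with 1 library left out. Medium against vehicle (46) came to 234 with DESeq2 (71.4% higher, where it was 82.6%), 8 with no filter, 511 without the tilted libraries, 1946 with only the compared groups, and 1 to 19 with 1 library left out. Low against vehicle (295) came to 657, 30, 1478 and 1814, and to 6 to 102. The contrast with other extracts (564) came to 794 with DESeq2, 175 with no filter, 1944 without the tilted libraries (72.6% higher, where it was 84.6%), and 250 to 293. With the 3 Okbyeongpung-san doses as 1 group, chosen after seeing the data, the first 3 counts were 360, 61 and 48, and low against vehicle 177. The tilted libraries were of Menthae Herba, Saposhnikoviae Radix and the high dose of Okbyeongpung-san. Causes were not tested.

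With the replicate number as a block, high against vehicle gave 653 calls, high against low 99, both 75, medium against vehicle 89 (67.4% higher), low against vehicle 481 and the contrast with other extracts 589. Blocking by library set and replicate gave 90, and crossing the low numbers 91, for high against low. Differences between replicates 1 and 2 of high and low correlated at -0.505 across 10350 genes, which are not independent, so the numbers were not taken to pair the samples.

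Over all alternatives, values of single named genes kept their call against vehicle 672 times and lost it 185 times. Against the low dose 844 kept their side of the threshold, 61 lost it and 23 gained it. There 5 genes, none of them called, changed sign with 1 library left out: RPSAP12 (-0.36 to 0.13), DNAJB11 (-0.08 to 0.11), IFI44 (-0.06 to 0.10), PER1 (-0.03 to 0.11) and DUSP1 (-0.19 to 0.00). With 2 libraries at the high dose, small changes of weakly expressed genes were not detectable.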
